A study of Mus musculus with 24 samples.

Results

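The data described here compare the heart ventricle of FVB mice, an inbred laboratory strain, at 4 weeks and at 1 year of age, that is, in juveniles and in ageing adults. The comparison takes 9 of the 24 arrays of a benchmark series that runs from embryos to 1-year-old animals: 3 arrays of 4 weeks, 3 of 1-year females and 3 of a 1-year group whose titles carry an m after the animal number and whose descriptions give no sex. The 2 groups of 1 year entered the comparison with equal weight. No sex is given for the mice of 4 weeks, no treatment or transgene is named for any of the 9 arrays, and the labels do not say whether an array held 1 animal or a pool. The fit used all 24 arrays, so the p-values rest on the spread within all 8 groups of the series, not only these 9 arrays. Some of that spread may therefore be technical. Total RNA was hybridised to an oligonucleotide array in which each gene is read by 1 or more probe sets, and every probe set with a signal on the arrays was used.

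The juvenile heart of the mouse grows mainly by enlargement of its muscle cells, while fibroblasts and the cells of vessels lay down collagens, elastin and basement membrane around them. In the adult heart these matrix proteins turn over slowly, and their transcripts are made at a low rate unless the tissue is injured. Antigen presentation by major histocompatibility complex (MHC) molecules is the display of peptides to T cells: class I molecules are made by nearly all cells, and class II molecules mainly by macrophages, dendritic cells and B cells. Ventricular muscle of the adult mouse uses the fast alpha myosin heavy chain, and the slow beta form, the main form of the fetal ventricle, can return under load or with age.

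The table of signals held 12654 probe sets, of which 2611 were at 0 on every array and 66 were controls, leaving 9977. Of these, 9952 lay above a floor of 14.2, the 25th percentile of all signals in the table, on at least 3 of the 24 arrays and were tested. Signals below 124.6, which 95% of the values of the 19 non-mouse control probe sets did not exceed, are called below background. The 9 arrays had medians between 197.3 and 223.8, and arrays of the same group correlated at 0.913 to 0.939. The ratio of the 3′ to the 5′ actin control, a measure of RNA integrity, ran from 1.122 to 1.344 at 4 weeks, from 1.239 to 1.59 and from 1.468 to 1.57 in the females and the m group of 1 year. Markers of heart muscle cells gave high signals at both ages. Cardiac troponin I (Tnni3) averaged 35281 ± 4890.0 (SD, n = 3) at 4 weeks and 34747 ± 6809 (SD, n = 6) at 1 year. The alpha myosin heavy chain Myh6 averaged 29616 ± 4386 and 28071 ± 4531. Myl2, a further marker, averaged 28611 ± 2407 and 27022 ± 7631, with its lowest signal, 13531, on the third array of the m group.

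At 1 year, 173 of the 9952 probe sets (1.74%) differed from 4 weeks at an adjusted p under 0.05 in limma with Benjamini-Hochberg adjustment. Of these, 88 (0.884%) were higher and 85 (0.854%) were lower. Counted as genes, each read by its brightest probe set with a single gene symbol, 137 of 7406 (1.85%) were called, of which 65 (0.878%) rose and 72 (0.972%) fell, and the median log2 change of all genes was -0.003. Changes of called probe sets ran from 0.51 to 5.27 for rises, with a median of 1.21, and from -0.43 to -3.84 for falls, with a median of -0.89. Among the largest rises were the antigen presentation genes H2-Aa, H2-Ab1 and Cd74 and the heart muscle genes Myh7 and Ankrd1, and among the largest falls Eln, Col1a1, Col3a1 and Sparc. With the actin ratio of each array as a covariate, an alternative chosen after seeing the data, 113 probe sets were called in place of 173.

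**Figure D1:**
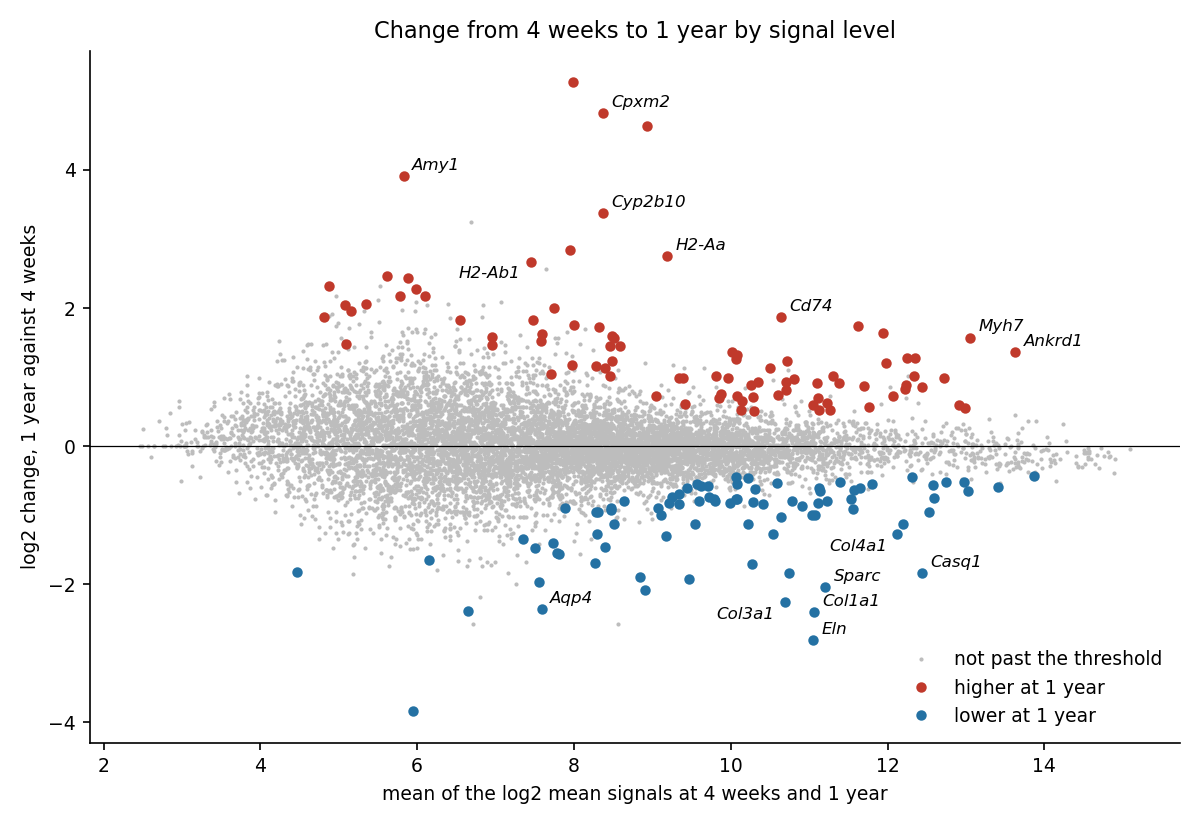
Change of each of the 9952 probe sets from 4 weeks to 1 year (log2, vertical axis) against its level (mean of the log2 mean signals of both ages, horizontal axis); grey points did not pass an adjusted p of 0.05, red points were higher and blue points lower at 1 year. The falls at high signal include Eln at -2.81, Col1a1 at -2.40 and Casq1 at -1.84, and the rises at high signal include Myh7 at 1.57 and Ankrd1 at 1.36.

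All 173 called probe sets had the same sign in both 1-year groups, 67 were called against 4 weeks in each of them, 59 in the females alone, 30 in the m group alone and 17 in neither. The 173 were chosen on the mean of these same groups against the same arrays of 4 weeks, which favours an equal sign in both. The females alone gave 180 calls (1.81%) against the arrays of 4 weeks, 92 higher (0.924%) and 88 lower (0.884%). The m group alone gave 112 (1.13%), 49 higher (0.492%) and 63 lower (0.633%). Both of these counts use the same 3 arrays of 4 weeks and so are not independent of each other. A call in 1 group and not in the other does not show that the groups differed, and 5 of the 173 probe sets were also called in the direct comparison of the 1-year groups described further on. Of all probe sets, 306 (3.07%) had all 6 arrays of 1 year above all 3 of 4 weeks and 332 (3.34%) had all 6 below, of which 74 (0.744%) and 80 (0.804%) were also called. Counted as genes, 234 (3.16%) had all 6 arrays above and 269 (3.63%) all 6 below.

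**Figure D2:**
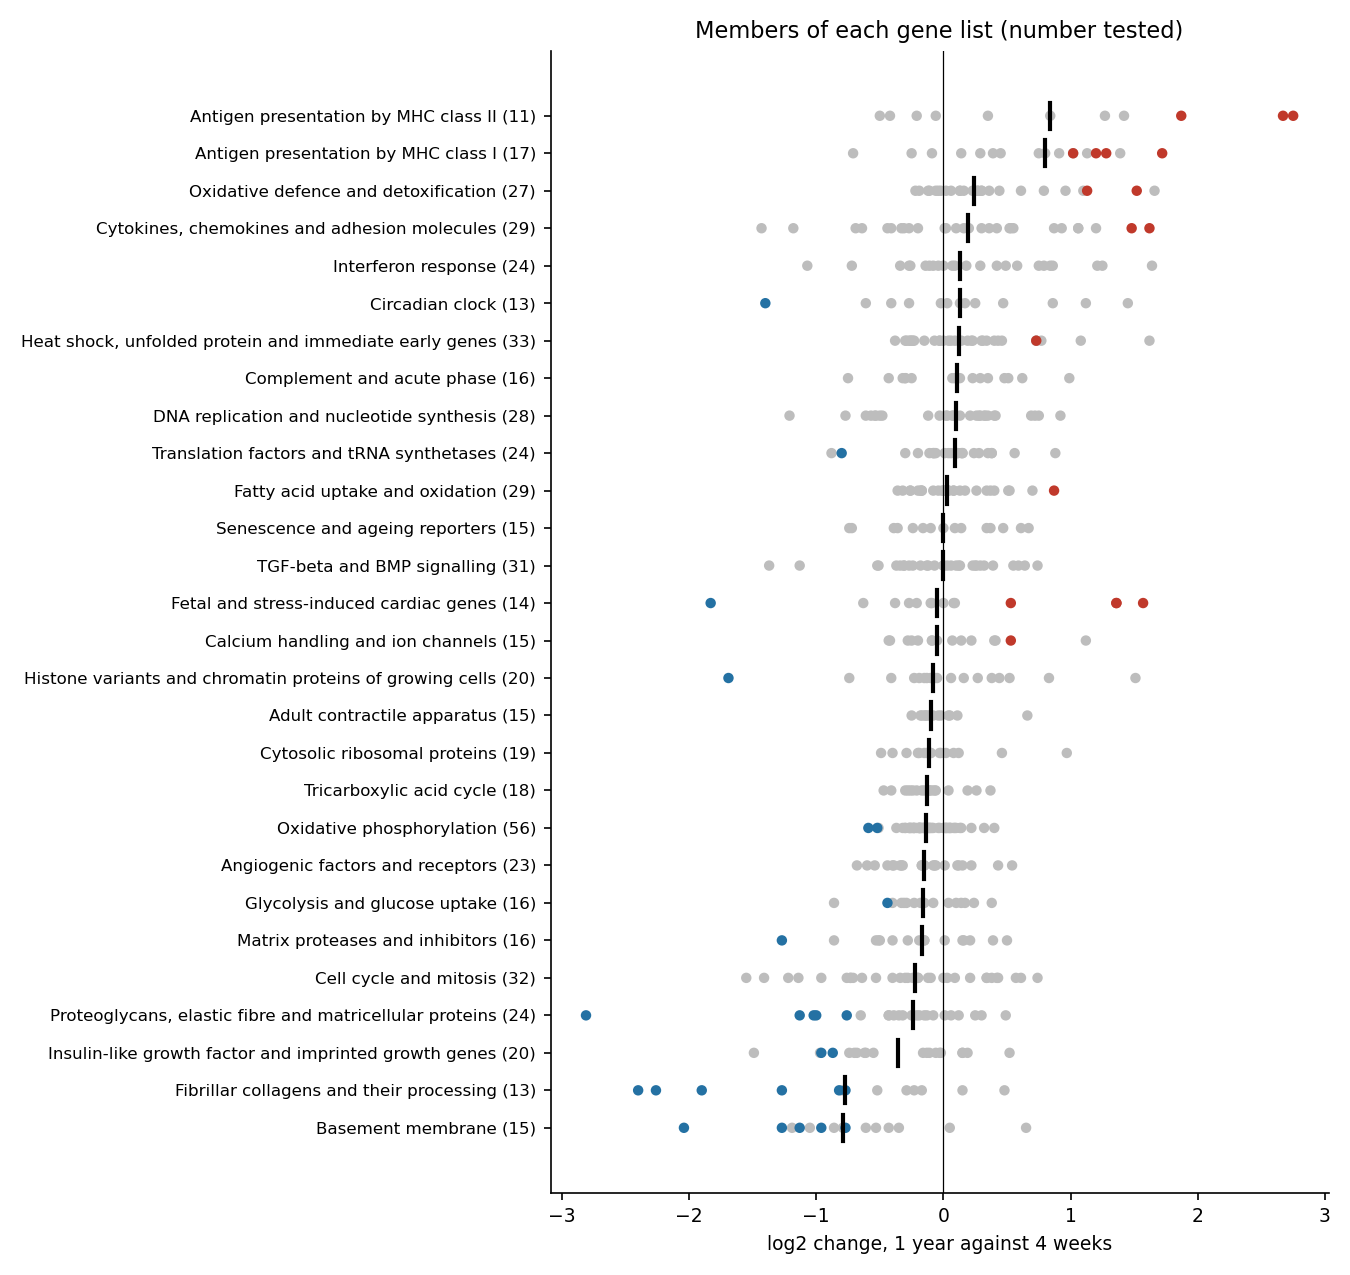
Log2 change from 4 weeks to 1 year of the members of the 28 functional gene lists, 1 point a gene and 1 row a list, with the number of genes tested in brackets. Black bars are list medians, red and blue points are genes that rose or fell at an adjusted p under 0.05, and grey points are genes that did not pass. The medians run from -0.79 for the basement membrane to 0.84 for MHC class II.

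Fibrillar collagens, the rope-like collagens that give the interstitium its strength, fell from 4 weeks to 1 year. Of the 13 genes tested in this group, which includes the enzymes that process collagen, 6 fell, none rose and 7 did not pass. Over all genes, 0.972% fell. The median log2 change of the group was -0.77, against -0.003 for all genes. This and the other gene lists were chosen with earlier results of these data known, which favours such counts and medians. Col1a1, which encodes the alpha-1 chain of type I collagen, gave signals of 4872, 5320.2 and 4498 on the arrays of 4 weeks, 724, 991 and 870.3 on those of 1-year females and 1176, 1015 and 828 on those of the 1-year m group. All 6 arrays of 1 year lay far below the lowest of 4 weeks, and the groups of 1 year overlapped each other. The fitted fall was 5.29-fold, a log2 change of -2.40 ± 0.13 (SE), with an adjusted p of 1.18e-11. Col3a1, the single chain of type III collagen, which is abundant in growing and elastic tissue, had 3154, 4142 and 3384 at 4 weeks, 478, 964 and 762 in females and 933, 880.0 and 558 in the m group. Its fall was 4.79-fold (log2 change -2.26 ± 0.22 (SE), adjusted p = 4.38e-07), again with no overlap between ages. A further probe set of Col3a1 dropped from 252 ± 18.8 to 15.1 ± 10.0, below background at 1 year, and a further one of Col1a1 from 2193 ± 60.5 to 696 ± 182, so both probe sets of each gene were called lower.

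The same group held smaller falls. Col5a2, a chain of type V collagen, which takes part in starting collagen fibrils, gave 883, 946 and 779 at 4 weeks against 308, 234 and 199 in females and 290.0, 282 and 136 in the m group, a log2 change of -1.90 ± 0.21 (SE) (adjusted p = 2.53e-06). Col1a2, the partner chain of Col1a1, had 2100.2, 2674 and 2189 at 4 weeks, 1037, 1098 and 900.4 in females and 1001, 943 and 791 in the m group, a 2.41-fold fall (adjusted p = 6.97e-07). Col1a2 thus fell by less than Col1a1 in log2 units in both 1-year groups, -1.19 and -1.35 against -2.51 and -2.29, a difference between genes that was not tested. Col5a1 changed by -0.82 (adjusted p = 0.000133) and Serpinh1, the collagen chaperone of the endoplasmic reticulum, by -0.77 (adjusted p = 0.00223). The hydroxylases P4ha1 and P4ha2, which modify proline in new collagen, had log2 changes of 0.48 and 0.15 and did not pass, nor did the collagen proteinases Bmp1 at -0.17 and Pcolce, an enhancer of that cleavage, at -0.52. The calls of these same 6 genes were kept under each of the 19 alternatives tried, including the covariate for actin ratio.

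Elastin showed the steepest of the falls at high signal. Eln, which encodes the rubber-like core protein of elastic fibres in vessel walls and valves, gave 5718, 5976 and 5041 at 4 weeks, 646, 690.0 and 903 in 1-year females and 683, 954 and 959 in the 1-year m group. The arrays of 1 year lay far below those of 4 weeks and overlapped each other between groups, and the fitted fall was 7.003-fold (log2 change -2.81 ± 0.16 (SE), adjusted p = 2.19e-11). Its other probe set, much dimmer, also fell, from 253 ± 26.5 to 104 ± 29.3 (adjusted p = 0.0149). Of the 24 proteoglycans, elastic fibre and matricellular proteins tested, 5 fell and none rose, against 0.972% of all genes falling, with a median of -0.24. The other 4 were Postn, a matricellular protein of activated fibroblasts, at -1.13, and the type VI collagen chains Col6a2 at -1.02, Col6a3 at -0.76 and Col6a1, whose fall was 2.00-fold. The small proteoglycans of collagen fibrils did not pass: decorin (Dcn) averaged 14470.0 ± 217 at 4 weeks and 12550.0 ± 1345 at 1 year, biglycan (Bgn) 4220.0 ± 389.5 and 3821 ± 599, and lumican (Lum) 1538 ± 115 and 1894 ± 144. Fibronectin (Fn1) had a log2 change of -0.43 (adjusted p = 0.194) and the microfibril proteins Mfap2, Mfap4 and Mfap5 of -0.08, 0.06 and -0.43. The count of this group went down to 2 or 3 when an array of 4 weeks was left out, replicate 2 or replicate 1, and Col6a1 and Eln were called under every alternative.

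**Figure D3:**
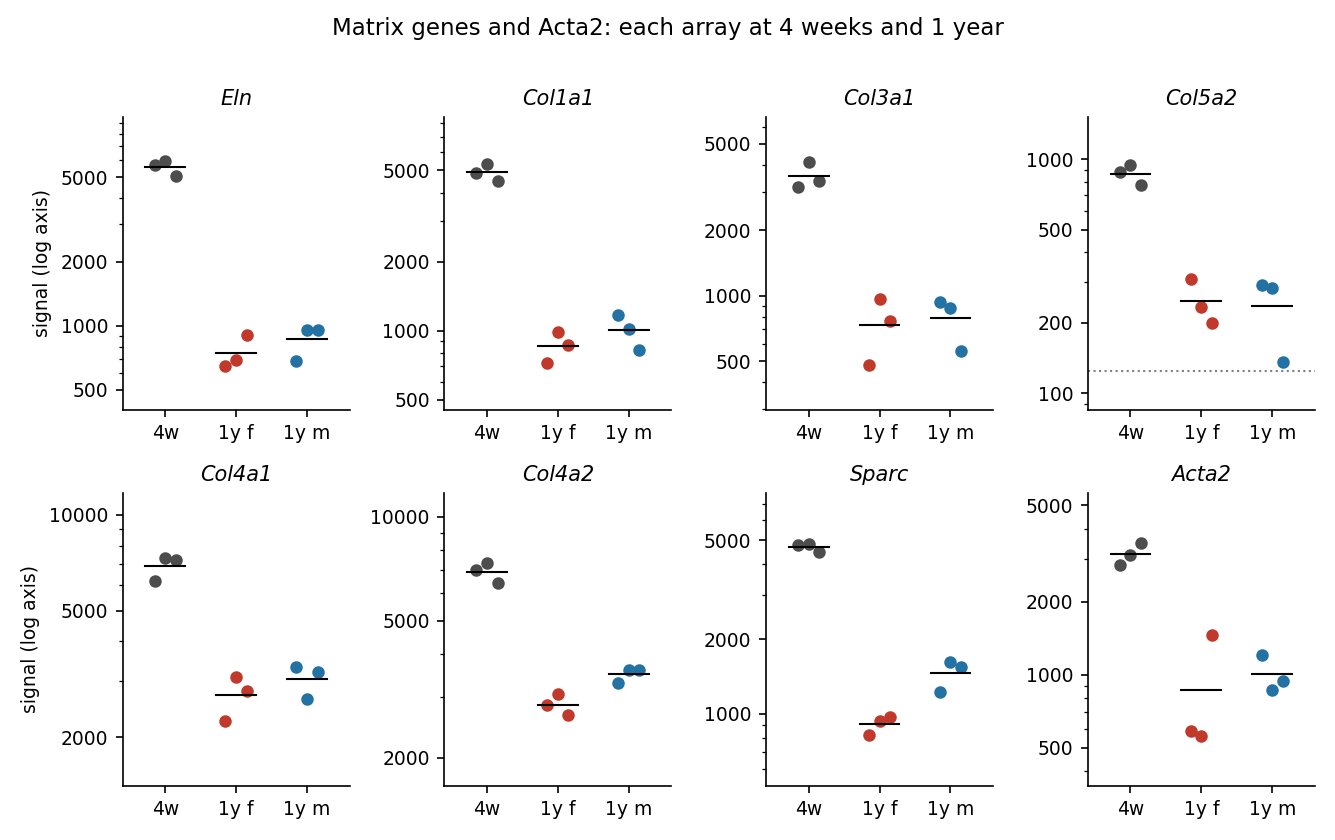
Signal of 7 matrix genes and Acta2 on each of the 9 arrays (points, logarithmic vertical axis; black lines are group means), with 4 weeks in grey, 1-year females in red and the 1-year m group in blue; the dotted line is the background level of 124.6. In all 8 panels the 3 arrays of 4 weeks lie above the 6 of 1 year, as for Eln, where the lowest of 4 weeks was 5041 and the highest of 1 year 959.

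Basement membrane genes fell as well. The basement membrane is the thin sheet of type IV collagen, laminin and nidogen that surrounds each heart muscle cell and each capillary. Of 15 genes tested, 5 fell, none rose and 10 did not pass, against 0.972% of all genes falling, with a median log2 change of -0.79. Sparc, a collagen-binding protein secreted by growing and remodelling tissue, gave 4787, 4832 and 4488 at 4 weeks, 823, 932 and 968 in 1-year females and 1220.5, 1616 and 1542 in the m group. The 3 arrays of females were the lowest, those of the m group came next, and both lay below 4 weeks, a 4.10-fold fall (log2 change -2.04 ± 0.19 (SE), adjusted p = 1.85e-07). The difference between the 1-year groups did not pass (adjusted p = 0.302). Col4a1 and Col4a2, whose chains assemble with each other into the type IV collagen of nearly all basement membranes, fell by similar amounts. Col4a1 gave 6187, 7313 and 7229 at 4 weeks, 2255, 3084 and 2793 in females and 3321, 2648 and 3201 in the m group, and Col4a2 gave 6988, 7322 and 6436, 2841, 3058 and 2657 and 3291, 3596 and 3587. No array of 1 year overlapped those of 4 weeks for either gene, and the log2 changes were -1.27 ± 0.13 (SE) (adjusted p = 1.3e-06) and -1.13 ± 0.12 (SE) (adjusted p = 2.57e-06).

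Col4a1 and Col4a2 lie head to head in the genome and are transcribed in opposite directions from 1 region, which is why their promoters are shown. In the RefSeq annotation of GRCm38.p6, the reference of another inbred strain, the windows from 250 bases before to 50 bases after their starts overlap by 78 bases (chr8:11312777-11312854). The window of Col4a1 is chr8:11312777-11313076 on the minus strand and that of Col4a2 is chr8:11312555-11312854 on the plus strand. Both are written 5′ to 3′ on the strand of their own gene, with the motif CCAAT, searched on both strands, in capitals (ATTGG where it lies on the other strand).
Col4a1: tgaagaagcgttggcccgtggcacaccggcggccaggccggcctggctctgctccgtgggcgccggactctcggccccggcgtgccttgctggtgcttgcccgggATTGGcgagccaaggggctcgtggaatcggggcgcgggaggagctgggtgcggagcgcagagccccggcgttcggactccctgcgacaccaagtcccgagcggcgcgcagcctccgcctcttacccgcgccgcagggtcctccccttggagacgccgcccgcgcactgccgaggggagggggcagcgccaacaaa
Col4a2: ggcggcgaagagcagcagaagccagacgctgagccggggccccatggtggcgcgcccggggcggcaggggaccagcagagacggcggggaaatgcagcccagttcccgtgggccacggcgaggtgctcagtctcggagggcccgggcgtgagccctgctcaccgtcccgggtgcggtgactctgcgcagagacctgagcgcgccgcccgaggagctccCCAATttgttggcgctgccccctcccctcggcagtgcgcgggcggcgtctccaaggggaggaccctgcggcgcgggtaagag
Each window held 1 match, 145 bases before the start of Col4a1 and 32 bases before that of Col4a2 in their own orientation. CCAAT is a common motif, found in 37.4% of the 32851 RefSeq promoter windows of this length, so the matches are a description of these windows and not sites of a factor.

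The remaining basement membrane genes were lower or did not pass. Lama4, a laminin chain of vessels and muscle, changed by -0.77 (adjusted p = 0.00128) and Col4a5, a chain of another type IV network, by -0.96 (adjusted p = 0.00962), the latter lost under 4 of the 19 alternatives. Col15a1 and Col18a1, collagens of the zone beneath basement membranes, had log2 changes of -0.86 and -1.05 and adjusted p-values of 0.156 and 0.0877. A further probe set of Col18a1 was called lower, at -1.65. That call was lost under 6 of the 19 alternatives, and the log2 change was -0.05 with the floor at background. The nidogens Nid1 and Nid2 averaged 138 and 74.3 at 4 weeks and 80.2 and 32.3 at 1 year, around or below background, and the heparan sulfate proteoglycan Hspg2 had a log2 change of -0.53 that did not pass. Lama5 stood apart with a log2 change of 0.65 (adjusted p = 0.0666), its 6 arrays of 1 year all above those of 4 weeks. Among 16 matrix proteases and inhibitors, Adam19, a membrane-bound metalloprotease of heart development, was the only one past the threshold, at -1.27 ± 0.29 (SE) (adjusted p = 0.0208), and that call was lost under 6 of the 19 alternatives. The inhibitors Timp1 and Timp2 had log2 changes of 0.15 and -0.15, and none of 31 genes of TGF-beta and BMP signalling passed, with a median of -0.00.

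Markers of the cells that make matrix moved in part with these falls. In a piece of tissue, fewer cells of a type and less RNA per cell cannot be told apart. Of 17 fibroblast and epicardium markers, 4 fell, against 0.972% of all genes. Those 4 were Col1a1, Col3a1, Col1a2 and Postn, which are matrix genes already counted. The summed signal of the whole list was 44655 to 46465 at 4 weeks, 32833 to 38182 in 1-year females and 28652 to 37977 among arrays of the m group. That sum includes those 4 genes, and their falls lower it. Col1a1 alone averaged 4896 at 4 weeks and 934 at 1 year, and Col3a1 3560 and 763. The markers that are not matrix genes of the lists above did not pass: Pdgfra, a growth factor receptor of fibroblasts, averaged 1550.0 ± 445 and 1226 ± 246 (log2 change -0.32), and Tcf21, a transcription factor of the epicardial and fibroblast lineage, 457 ± 92.9 and 301 ± 39.2 (log2 change -0.59). The actin-severing protein gelsolin (Gsn) averaged 12912 ± 489.8 and 12283 ± 2257. Whether a change in the share of fibroblasts had a part in the collagen falls was not tested.

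Smooth muscle actin and a LIM protein of smooth muscle fell as well. Acta2, the actin of vascular smooth muscle and of activated fibroblasts, which fetal heart muscle also makes, gave 2833, 3106 and 3499.6 at 4 weeks, 586, 559 and 1452 in 1-year females and 1206, 865 and 941 in the m group. The third array of females was well above the other two and above all 3 of the m group, and all 6 lay below the lowest array of 4 weeks. The fitted fall was 3.56-fold (log2 change -1.83 ± 0.21 (SE), adjusted p = 5.39e-06). Csrp2, a LIM-domain protein, gave 923, 1000.4 and 921 at 4 weeks against 144, 378 and 332 in females and 266, 138 and 194 in the m group, a log2 change of -2.08 ± 0.23 (SE) (adjusted p = 2.47e-06). Acta2 was the only 1 of 10 smooth muscle and pericyte markers to pass. The others included Tagln at -0.36, Mylk at 0.00, Myh11 at 0.21 and the pericyte marker Rgs5 at -0.34, and the summed list ran from 9564 to 10393 at 4 weeks, from 6280 to 7522 in females and from 5800 to 7582 in the m group. This sum includes Acta2 itself, which averaged 3146 at 4 weeks and 935 at 1 year. Whether a change in the share of smooth muscle cells had a part in the fall of Acta2 was not tested.

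Heart muscle genes were mostly level, with a few rises. None of 15 genes of the adult contractile apparatus passed, with a median of -0.10, and 4 of 14 fetal and stress-induced cardiac genes rose while Acta2 fell. Over all genes, 0.878% rose and 0.972% fell. Myh7, the slow beta myosin heavy chain, gave 5257, 3689 and 5158 at 4 weeks, 19889.5, 24449 and 8058 in 1-year females and 19072, 7097 and 13105 in the m group. All 6 arrays of 1 year were above the highest of 4 weeks, but they spread widely: the third array of females and the second of the m group were far below the highest in their groups. The rise was 2.98-fold (log2 change 1.57 ± 0.29 (SE), adjusted p = 0.00223), and it did not pass with the 9 arrays fitted alone (adjusted p = 0.0829). Its probe set is one of those marked as shared by members of a gene family, while the alpha chain Myh6, the closest relative, had a log2 change of -0.08 (adjusted p = 0.935).

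Ankrd1, a cardiac ankyrin repeat protein that is induced in stretched or stressed heart muscle, gave 7761, 6524 and 9471 at 4 weeks, 17135, 17101 and 19342 in females and 21058, 21884 and 25427 in the m group. The lowest array of 1 year was well above the highest of 4 weeks, and the rise was 2.57-fold (log2 change 1.36 ± 0.14 (SE), adjusted p = 1.3e-06). Ccn2, the connective tissue growth factor, gave 787, 402 and 694 at 4 weeks, 1659, 2680.5 and 2241 in females and 1409.5, 670.3 and 1496 in the m group. The second array of the m group lay within the range of 4 weeks, the other 5 lay above it, and the log2 change was 1.36 ± 0.23 (SE) (adjusted p = 0.000858), lost only with the 9 arrays alone (adjusted p = 0.057). Fhl1, a LIM protein of the sarcomere, rose by 0.53 (adjusted p = 0.0184), which 5 of the 19 alternatives did not keep, and its other 2 probe sets did not pass.

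The other classical genes of the fetal and stressed heart gave no call in the pooled comparison. The natriuretic peptide genes Nppa and Nppb, hormones released by stretched heart muscle, averaged 2010.0 ± 355 and 7927 ± 1421 at 4 weeks and 1942 ± 1241 and 8370.0 ± 1122 at 1 year, with log2 changes of -0.21 and 0.08. Skeletal alpha actin (Acta1) averaged 10787 ± 2480.0 at 4 weeks, 5829 ± 2096 in females and 12019 ± 129.9 in the m group. It was lower in females than at 4 weeks (log2 change -0.93, adjusted p = 0.0301) and than in the m group (difference -1.11, adjusted p = 0.0371), and the m group did not pass against 4 weeks (0.18, adjusted p = 0.872). Tnni1, a troponin I made by fetal heart and slow skeletal muscle, averaged 484 ± 236 and 484 ± 69.7. Of 15 calcium handling and ion channel genes, Cacna1c, the pore subunit of the L-type calcium channel, was the only one to pass, rising by 0.53 ± 0.12 (SE) (adjusted p = 0.0169), a call lost under 5 of the 19 alternatives. The calcium pump Atp2a2 averaged 19150.0 ± 2296 and 16750.0 ± 2727 and the release channel Ryr2 3806 ± 1206 and 4062 ± 455. Among 9 atrial markers, Clu rose by 0.59 (adjusted p = 0.013), lost under 4 of the alternatives, and the atrial light chain Myl7 varied between arrays of the m group from 103 to 5081, with a summed list of 6162 to 15173 in that group against 5549 to 7019 at 4 weeks.

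Casq1, the calsequestrin of fast skeletal muscle, a protein that stores calcium in the sarcoplasmic reticulum, fell at high signal. It gave 10570.0, 10394 and 10074 at 4 weeks, 2361, 2791 and 1931 in 1-year females and 2835, 4098 and 3945 in the m group. The arrays of 4 weeks were tight and far above those of 1 year, a 3.58-fold fall (log2 change -1.84 ± 0.12 (SE), adjusted p = 6.04e-10), and the females were lower than the m group by a difference that did not pass (adjusted p = 0.0852). Casq1 was the only 1 of 15 skeletal muscle markers past the threshold. The summed list ran from 21866 to 26548 at 4 weeks, from 8264 to 13675 in females and from 17552 to 19515 in the m group, and most of it came from Casq1 and Acta1. The fast skeletal myosin chains Myh1, Myh2 and Myh4, which define that muscle, averaged 9.07, 16.7 and 7.87 at 4 weeks, below background, as did the skeletal troponins Tnni2 and Tnnc2 at 40.8 and 30.2. The cardiac calsequestrin Casq2 averaged 851 ± 133 and 794 ± 43.0 (log2 change -0.09). At younger ages of the series Casq1 averaged 2843 in neonates and 2101 at 1 week, so that the arrays of 4 weeks held its highest level among those ages and 1 year.

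Energy metabolism changed little. Of 56 oxidative phosphorylation genes, 2 fell and none rose, against 0.972% of all genes falling, with 39 negative and 17 positive changes and a median of -0.14. The falls were Ndufb8, a subunit of complex I, at -0.59 (adjusted p = 0.0361), and Cox6a1, a subunit of complex IV, at -0.52 (adjusted p = 0.0222). Neither held throughout: the calls were lost under 12 and 9 of the 19 alternatives. None of 18 genes of the tricarboxylic acid cycle passed. Of 29 genes of fatty acid uptake and oxidation, Acadl, the long-chain acyl-CoA dehydrogenase, rose by 0.87 (adjusted p = 0.0275), and of 16 glycolytic genes Pgk1, phosphoglycerate kinase, fell by 1.36-fold (log2 change -0.44, adjusted p = 0.045), lost under 10 and 13 alternatives.

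Some antigen presentation genes of both classes rose from 4 weeks to 1 year. Of 11 MHC class II genes, 3 rose and none fell, with a median of 0.84, and of 17 class I genes, 4 rose and none fell, with a median of 0.80, against 0.878% of all genes rising. In the females alone 3 class II and 7 class I genes passed, with medians of 0.97 and 0.97. In the m group alone 3 and 1 passed, with medians of 0.13 and 0.58. Over all probe sets, 0.924% were called higher in the females and 0.492% in the m group. The difference between the 2 groups in the counts of list genes was not tested. The pooled class II median was 0.48 with the floor at background. H2-Aa, the alpha chain of a class II molecule, gave 439, 62.2 and 232 at 4 weeks, 1366, 2663 and 1820.2 in 1-year females and 777, 936 and 760.0 in the m group. The second array of 4 weeks was below background and the highest array of 4 weeks was still under every array of 1 year. The rise was 6.71-fold (log2 change 2.75 ± 0.39 (SE), adjusted p = 9.08e-05), 3.89-fold without replicate 2 of 4 weeks and 10.3-fold without replicate 1. H2-Ab1, the beta chain that pairs with it, gave 60.6, 71.1 and 72.2 at 4 weeks, all below background, 473, 745 and 367 in females and 343, 464 and 311 in the m group (log2 change 2.67 ± 0.49 (SE), adjusted p = 0.0025). Its level at 4 weeks could not be told from background, so the fold change depends on the level given to such signals, and the log2 change was 1.79 with the floor at background. Cd74, the invariant chain that guides class II molecules to the compartment where they take up peptide, gave 903, 691 and 836 at 4 weeks, 3249, 5651 and 3665 in females and 2076, 2098 and 2253 in the m group. The arrays of the m group were close together and above 4 weeks, the females were higher and more spread, and the pooled rise was 3.67-fold (log2 change 1.87 ± 0.21 (SE), adjusted p = 4.51e-06).

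The 3 class II calls were made under each of the 19 alternatives. Genes of the same list without a call were H2-DMa, which edits the peptides of class II, at 0.84 (adjusted p = 0.346), and Ciita, the master regulator of class II transcription, at -0.21, with means of 169 and 167. H2-Eb1 had a log2 change of -0.42 and the lysosomal protease Ctss, which trims Cd74, of -0.06.

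**Figure D4:**
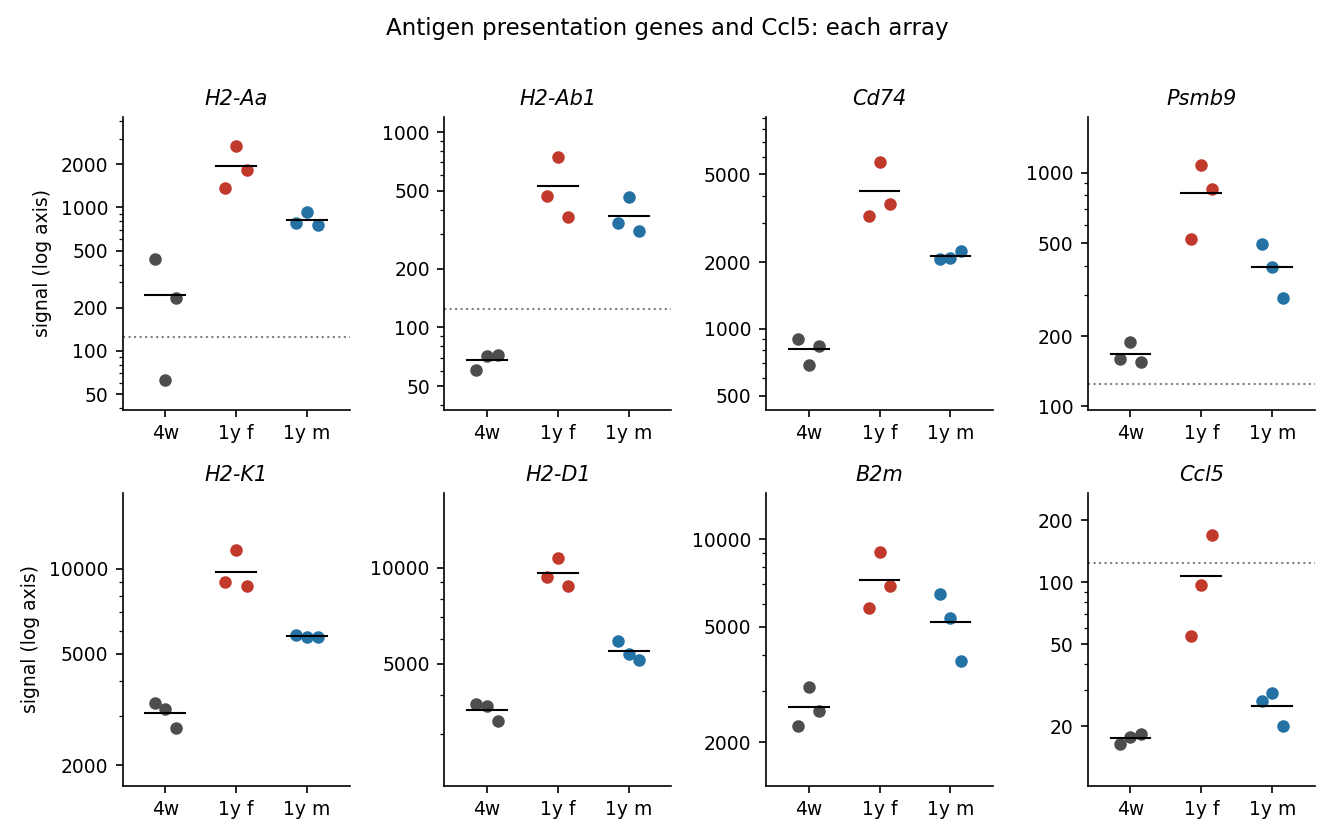
Signal of 7 antigen presentation genes and the chemokine gene Ccl5 on each of the 9 arrays (points, logarithmic vertical axis; black lines are group means), with 4 weeks in grey, 1-year females in red and the 1-year m group in blue; the dotted line is the background level of 124.6. Every array of 1 year lies above every array of 4 weeks in the 8 panels, and the mean of 1-year females is above that of the m group in each, 4188 against 2142 for Cd74.

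Among class I genes, the heavy chains H2-K1 and H2-D1 were the brightest. H2-K1 gave 3343, 3178 and 2711 at 4 weeks, 8946, 11623 and 8670.3 in females and 5796, 5704 and 5744 in the m group, a 2.43-fold rise (log2 change 1.28 ± 0.18 (SE), adjusted p = 6.1e-05). H2-D1 gave 3731, 3672 and 3315 at 4 weeks, 9342, 10728 and 8789 in females and 5909.9, 5365 and 5124 in the m group, a 2.03-fold rise (log2 change 1.02 ± 0.15 (SE), adjusted p = 0.0001). In both genes 4 weeks was lowest, the m group intermediate and the females highest, with no overlap between the 3 groups. For H2-D1 the difference between the 1-year groups passed the test (0.81 ± 0.17 (SE) on the log2 scale, adjusted p = 0.0371), and for H2-K1 it did not (adjusted p = 0.166). All but 1 of the probe sets of these genes are of the kind shared by several members of the family. Class I genes also differ between strains, so a value may mix neighbouring genes. The further 2 probe sets of H2-D1 were also called higher. Of the further 2 of H2-K1, 1 was called (log2 change 1.01). The other, the 1 not marked as shared, was not (0.82, adjusted p = 0.298).

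B2m, the light chain common to all class I molecules, gave 2267, 3090.1 and 2566 at 4 weeks, 5785, 9019 and 6906 in females and 6475, 5342 and 3802 in the m group. All arrays of 1 year were above those of 4 weeks, but the log2 change of 1.20 ± 0.31 (SE) passed only narrowly (adjusted p = 0.0449) and the call was lost under 13 of the 19 alternatives. In the m group alone B2m, H2-D1 and Psmb9 did not pass (adjusted p = 0.294, 0.0873 and 0.193). Psmb9, a subunit of the immunoproteasome that cuts peptides for class I, gave 159, 188 and 155 at 4 weeks, 523, 1082 and 849 in females and 496, 395 and 292 in the m group (log2 change 1.72 ± 0.35 (SE), adjusted p = 0.0056). Its partner subunit Psmb8 had a log2 change of 1.13 (adjusted p = 0.0803), the peptide transporter subunits Tap1 and Tap2 of 0.75 and 0.91, and the heavy chain H2-K2 of 1.02 (adjusted p = 0.156), none of which passed. The number of class I genes past the threshold ran from 3 to 6 over the alternatives.

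The promoter windows of H2-Aa and B2m are shown because these genes belong to the rising class II and class I groups. They are taken from RefSeq on GRCm38.p6, chr17:34287774-34288073 on the minus strand and chr2:122147437-122147736 on the plus strand, 250 bases before to 50 after the start, 5′ to 3′ on the strand of the gene. Capitals mark CCAAT (or ATTGG on the other strand), TGACGTCA, the full cyclic AMP response element, and an interferon response motif made of 2 runs of GAAA with any 2 bases between them, each searched on both strands with no overlap found between the marked stretches.
H2-Aa: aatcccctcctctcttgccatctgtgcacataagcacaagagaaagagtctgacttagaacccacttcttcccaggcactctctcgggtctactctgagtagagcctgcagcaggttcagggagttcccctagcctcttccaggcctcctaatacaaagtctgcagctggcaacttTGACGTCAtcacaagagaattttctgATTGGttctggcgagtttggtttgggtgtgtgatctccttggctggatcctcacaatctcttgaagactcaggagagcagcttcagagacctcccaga
B2m: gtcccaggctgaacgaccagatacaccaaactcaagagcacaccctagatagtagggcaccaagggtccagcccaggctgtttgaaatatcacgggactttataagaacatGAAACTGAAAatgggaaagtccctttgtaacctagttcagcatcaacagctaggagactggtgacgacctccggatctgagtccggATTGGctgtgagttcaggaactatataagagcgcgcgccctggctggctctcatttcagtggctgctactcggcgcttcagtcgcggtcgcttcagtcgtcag
H2-Aa held TGACGTCA 74 bases and CCAAT 48 bases before its start. B2m held the interferon response motif 139 bases and CCAAT 53 bases before its start. Windows of 7 genes were searched in all, and those of H2-D1, Col1a2 and Col3a1 are not printed. The window of H2-D1, another rising class I gene, held CCAAT at 2 places and neither of the other motifs. That of Col1a2 held only CCAAT, at 2 places, and that of Col3a1 held no match. Of the 32851 promoter windows, 1.79% hold TGACGTCA, 3.44% hold the interferon response motif and 37.4% hold CCAAT, and a match describes the letters only.

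Genes of the interferon response, which often move with MHC genes, had no call among the 24 tested, with a median of 0.13. The guanylate-binding protein Gbp2 averaged 285 ± 45.2 and 512 ± 100.5 (adjusted p = 0.53) and the GTPase Irgm2 281 ± 67.6 and 811 ± 648 (adjusted p = 0.0533), while Isg15 averaged 268 ± 84.0 and 163 ± 123. Of 29 cytokines, chemokines and adhesion molecules, 2 rose, against 0.878% of all genes rising. Vcam1, an endothelial receptor for leukocytes, gave 166, 96.1 and 74.7 at 4 weeks, 266, 410.4 and 415 in females and 397, 259 and 254 in the m group (log2 change 1.62 ± 0.24 (SE), adjusted p = 0.000186). Its other 2 probe sets did not pass, with log2 changes of 0.47 and 0.24, so the probe sets of this gene disagree in size. Ccl5, a chemokine of T cells, gave 16.5, 17.8 and 18.4 at 4 weeks, 54.6, 97.4 and 169 in females and 26.6, 29.0 and 20.1 in the m group, where only 1 array of females exceeded the background, and its call (adjusted p = 0.0358) was lost under 11 of the 17 alternatives in which it was tested.

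Markers of the immune cells that carry class II had no call in either direction. None of 15 macrophage and monocyte markers passed, 12 of the 15 changes were negative with a median of -0.31, and the summed list was 6603 to 7162 at 4 weeks, 5674 to 6282 in 1-year females and 4680 to 5505 in the m group. The complement component C1qa averaged 1641 ± 145 and 1399 ± 241, the receptor Csf1r 914 ± 127 and 569 ± 53.9 and lysozyme (Lyz2) 885 ± 60.4 and 722 ± 173. None of 9 B and plasma cell markers and none of 14 T and NK cell markers passed, with summed lists of 1689 to 2134 and 1164 to 1734 at 4 weeks, 1437 to 1882 and 1204 to 1661 in females, and 1659 to 2255 and 1345 to 1798 in the m group. The T cell receptor genes Cd3e, Cd3g and Cd3d averaged 59.1, 69.3 and 50.9 at 1 year, below background. Dendritic cells had no list of their own, and their part in the class II values was not tested.

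The largest rises of all lay outside the lists. Cpxm2, a member of the metallocarboxypeptidase family, gave 118, 15.2 and 80.7 at 4 weeks, 1491, 2040.5 and 1385 in 1-year females and 1843, 991 and 1407 in the m group. It was below background on all arrays of 4 weeks and the lowest array of 1 year stood at 991, a log2 change of 4.82 ± 0.64 (SE) (adjusted p = 3.5e-05). Its other probe set went from 42.6 ± 23.3 to 1511 ± 186 (log2 change 5.27, adjusted p = 3.66e-08). These sizes depend on the level given to signals below background, with 3.58 and 3.59 when the floor was raised to the background, and the first was 3.93 without replicate 2 of 4 weeks. Amy1, the salivary-type amylase, gave 13.4, 16.3 and 13.0 at 4 weeks, at or near the floor, 238, 171 and 251 in females and 299, 181 and 226 in the m group. Its log2 change of 3.91 ± 0.47 (SE) (adjusted p = 1.01e-05) became 0.84 with the floor raised to the background, since nothing at 4 weeks could be told from background. Cyp2b10, a cytochrome P450 that metabolises foreign compounds and that has close relatives, gave 112, 155 and 52.1 at 4 weeks, 1374, 1041 and 835 in females and 1089, 1196 and 643 in the m group, a log2 change of 3.37 ± 0.42 (SE) (adjusted p = 1.41e-05).

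Other rises were of lower signal or size. Tspan4, a membrane tetraspanin, averaged 208 ± 82.6 at 4 weeks, 466 ± 116 in females and 773 ± 118 in the m group (log2 change 1.59 ± 0.22 (SE), adjusted p = 8.66e-05). Nr1h4, the bile acid receptor, averaged 50.1 ± 16.6 at 4 weeks, below background, and 173 ± 26.5 at 1 year (adjusted p = 0.00911), with the call lost under 2 alternatives, among them the floor at background, under which its log2 change was 0.46. Nudc, a protein of nuclear positioning by dynein, and Egfbp2, a kallikrein-related protease, had log2 changes of 1.58 and 2.28 (adjusted p = 0.0428 and 0.0361), and those calls were lost under 10 and 11 of the 19 alternatives. Rhd, the Rhesus blood group antigen of red cells, rose by 1.45 ± 0.31 (SE) (adjusted p = 0.0108), as the only 1 of 11 erythroid markers to pass. The haemoglobin genes Hba-a1 and Hbb-b2 averaged 23664 ± 2348 and 10567 ± 2369 at 4 weeks and 23018 ± 4211 and 9785 ± 3441 at 1 year, and the erythroid list summed to 37511 to 40490 on the arrays of 4 weeks, 30284 to 42422 on those of females and 34028 to 45688 on those of the m group.

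Defence against oxidants and foreign compounds gave 2 rises among 27 genes and no fall, against 0.878% of all genes rising, with a median of 0.24. Gstm2, a glutathione transferase, gave 802, 951 and 1166 at 4 weeks, 1514, 2326 and 2463 in females and 2257, 2414 and 1864 in the m group, all 6 arrays of 1 year above those of 4 weeks (log2 change 1.13 ± 0.22 (SE), adjusted p = 0.00399). Ephx1, the microsomal epoxide hydrolase, averaged 110.3 ± 39.9 and 335 ± 154, with 1 array of the m group within the range of 4 weeks and a call (adjusted p = 0.0309) lost under 9 of the 19 alternatives. The superoxide dismutases Sod1 and Sod2 had log2 changes of 0.16 and -0.22 and the metallothioneins Mt1 and Mt2 of 0.61 and 0.96, none past the threshold. Of 33 heat shock, unfolded protein and immediate early genes, Ier3 rose by 0.73 (adjusted p = 0.00984, lost under 3 alternatives). None of 15 senescence and ageing reporters passed: the cell cycle inhibitor gene Cdkn2a averaged 148 ± 83.0 and 147 ± 78.7 and Cdkn2d 366 ± 76.0 and 244 ± 112.

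Against 0.972% of all genes falling, 2 of 20 insulin-like growth factor and imprinted growth genes fell and none rose. Their median was -0.36 in the pooled comparison, 0.01 in the females and -0.54 in the m group, and the pooled one was -0.10 with the floor at background. Igf2, a fetal growth factor expressed from the paternal allele, gave 2301, 2473 and 2993 at 4 weeks, 1227, 1314 and 1354 in females and 1478, 1800.4 and 1365 in the m group. All arrays of 1 year were lower, by 1.82-fold (log2 change -0.87 ± 0.13 (SE), adjusted p = 0.000243), in a gene that had already come down from 14944 in neonates and 13500.0 at 1 week. A second probe set of Igf2 was below background at both ages. Peg3, another gene expressed from the paternal allele, fell by 1.95-fold (adjusted p = 0.00301; with the 9 arrays alone 0.0836), and its other probe set did not pass (log2 change -1.34, adjusted p = 0.12). Igf1 averaged 1226 ± 56.7 and 1137 ± 242 and its receptor Igf1r 901 ± 103 and 1034 ± 180.3.

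None of 32 cell cycle genes and none of 28 DNA replication genes passed, with medians of -0.22 and 0.10. The proliferation marker Mki67 averaged 76.8 ± 22.0 and 28.2 ± 21.2 and the topoisomerase Top2a 46.6 ± 46.2 and 22.2 ± 11.6, below background at both ages, so a change in dividing cells was not detectable with these probe sets. Cks1b, a subunit of the cyclin-dependent kinases, averaged 201 ± 8.95 and 95.7 ± 34.7 (adjusted p = 0.0877). Dnmt1, the maintenance DNA methyltransferase, was the only 1 of 20 chromatin genes to pass, and it is described with the 1-year groups.

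A last set of falls was of varied function. Aqp4, a water channel, gave 418, 474 and 375 at 4 weeks, 132, 53.4 and 93.1 in females and 130.1, 57.1 and 62.1 in the m group, where most arrays were near or below background (log2 change -2.36 ± 0.35 (SE), adjusted p = 0.000145; -1.73 with the floor at background). Its other probe set fell too (-2.38, adjusted p = 0.0344). Ckap4, a membrane protein of the endoplasmic reticulum, fell by 2.95-fold (adjusted p = 0.00841) and Sh3gl1, an endophilin of membrane uptake, by 2.77-fold (adjusted p = 0.00454), lost under 3 and 1 of the alternatives. Nos3, the nitric oxide synthase of endothelium, averaged 521 ± 110.2 and 218 ± 132 (adjusted p = 0.0324), and the palmitoyltransferase Zdhhc3 336 ± 29.4 and 145 ± 87.4 (adjusted p = 0.0449), with calls lost under 10 and 13. None of 15 endothelial markers passed, although 13 of the 15 changes were negative with a median of -0.27, and the summed list was 18269 to 19079 at 4 weeks, 15078 to 15976 in females and 14859 to 18896 in the m group. The part of that in the fall of Nos3 was not tested.

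Arntl, a core transcription factor of the circadian clock, was the only 1 of 13 clock genes past the threshold. It gave 359, 383 and 256 at 4 weeks, 141, 168 and 144 in females and 167, 146 and 43.4 in the m group (log2 change -1.40 ± 0.34 (SE), adjusted p = 0.0297), and the call was lost under 7 of the 19 alternatives. Genes that peak at the opposite time of day had positive values that did not pass: Per1 1.12 (adjusted p = 0.0988), Per2 1.45 (adjusted p = 0.313), Per3 0.47 (adjusted p = 0.249) and Nr1d2 0.86 (adjusted p = 0.0502). The labels give no hour of collection, and its part in these values was not tested. Of 24 translation factors and synthetases, Pabpc1, the poly(A)-binding protein, was the only one to pass, at -0.80 (adjusted p = 0.0316, lost under 8), and none of 19 ribosomal protein genes did.

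The 1-year groups were then compared with each other, since the 4-week mice carry no sex label. Xist, the RNA of the inactive X chromosome, gave 11.9, 18.1 and 23.9 at 4 weeks, 892, 1329.5 and 1209 in 1-year females and 88.6, 14.7 and 13.1 in the m group, below background in all but the females. The Y-linked gene Eif2s3y gave 237, 368 and 332 at 4 weeks, 103, 57.2 and 2.6 in females and 346, 429 and 364 in the m group, below background in the females. Uty, also Y-linked, gave 132.7, 150.7 and 168.4 at 4 weeks, 128.1, 18.9 and 15.3 in females and 216.5, 162.4 and 148.5 in the m group. The first array of females was thus slightly above background. Kdm5d, also Y-linked, was below background on all 9 arrays, at 88.7 or less, and did not separate the groups. In Xist and Eif2s3y the arrays of 4 weeks and of the m group were alike and unlike the females. The comparison of 1 year with 4 weeks therefore sets a group of both patterns against a group of 1. Directly compared, 21 of 9952 probe sets (0.211%) differed between the 1-year groups, 16 higher (0.161%) and 5 lower (0.0502%) in females. With the 9 arrays fitted alone no probe set passed in limma (838 at an unadjusted p under 0.05, against 814 in the fit of all 24 arrays), and without replicate 1 of the m group 119 passed.

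Among the genes that were higher in 1-year females was Ddit4, an inhibitor of the growth kinase mTOR, which gave 1060.0, 694 and 528.7 at 4 weeks, 2403, 2844 and 2534 in females and 939.8, 217 and 306 in the m group. The females were tight and above every other array, and the difference between the 1-year groups was 2.70 ± 0.35 (SE) on the log2 scale (adjusted p = 0.000412). Map3k6, a stress-activated kinase, was below background in the m group on average (94.2 ± 61.0) against 575 ± 101 in females, with 85.6 ± 34.6 at 4 weeks (difference 2.78, adjusted p = 0.0371; 2.06 with the floor at background). Cebpb, a transcription factor of the acute response, averaged 2740.0 ± 173 in females, 1041 ± 285 in the m group and 893 ± 229 at 4 weeks (difference 1.44, adjusted p = 0.00979). Its call in the pooled comparison (log2 change 0.93, adjusted p = 0.0212) came with values of 1.65 in females and 0.21 in the m group. Sgk1, a kinase induced by serum and glucocorticoids, averaged 1138 ± 48.1, 536 ± 233 and 759 ± 38.2 in the same order (difference 1.18, adjusted p = 0.0495), a call lost under 14 of 18 alternatives. Kdm6a, an X-linked histone demethylase known to escape X inactivation, averaged 751 ± 94.5, 316 ± 136 and 376 ± 61.4 (difference 1.32, adjusted p = 0.0371). Of the 21 calls between the 1-year groups none held under all 18 alternatives: Ddit4, Pold1, Foxm1 and Rrad were lost under 1, the fit of the 9 arrays alone, Cebpb under 4, Cd276 and Acta1 under 6, Map3k6, Dpysl3 and Cdkn1a under 8, H2-D1 under 10 and Kdm6a and Dnmt1 under 11. Without replicate 1 of the m group the difference of Ddit4 was 3.33, and without replicate 2 of the females that of Cd276 was -1.42.

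**Figure D5:**
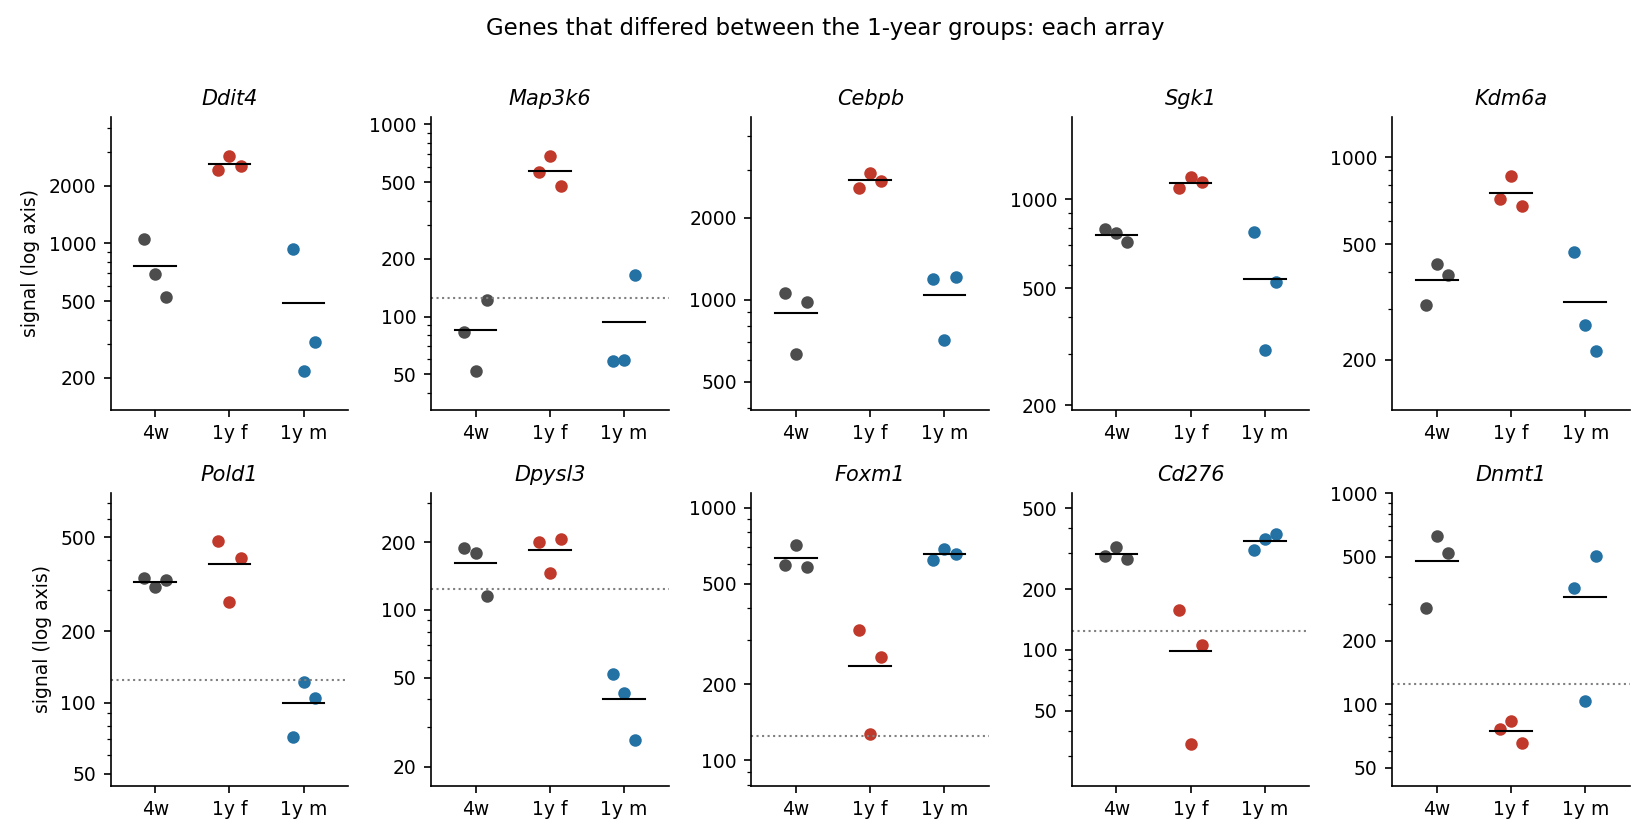
Signal of the 10 genes with the largest called differences between the 1-year groups, each gene read by its brightest probe set, on each of the 9 arrays (points, logarithmic vertical axis; black lines are group means), with 4 weeks in grey, 1-year females in red and the 1-year m group in blue; the dotted line is the background level of 124.6. In Ddit4 the lowest female array, at 2403, is above the highest of the other 6, at 1060.0, and in Pold1 and Dpysl3 it is the m group that lies below the other 2 groups.

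In some of the genes the m group differed from 4 weeks and the females did not pass against 4 weeks. Pold1, the catalytic subunit of DNA polymerase delta, gave 335, 309.6 and 330.3 at 4 weeks, 480.4, 266 and 408 in females and 71.3, 123 and 105 in the m group, all below background in the last (difference 1.94 ± 0.25 (SE), adjusted p = 0.000412). Dpysl3, a cytoskeletal regulator, averaged 161 ± 40.5 at 4 weeks, 185 ± 33.1 in females and 40.3 ± 12.9 in the m group (difference 2.24, adjusted p = 0.0371), which became 0.55 with the floor at background. 1 of 2 probe sets of Cdkn1a, an inhibitor of the cell cycle, chosen after its values were seen, averaged 475 ± 93.1 at 4 weeks, 469 ± 59.6 in females and 113 ± 19.7 in the m group (difference 2.06, adjusted p = 0.0371), while the other had a difference of 0.09 (adjusted p = 0.986). Pnp, a purine-salvage enzyme also chosen after its values were seen, averaged 1056, 1172 ± 78.3 and 689 ± 139 in that order (difference 0.78, adjusted p = 0.0279). Among the 5 probe sets that were lower in females were Foxm1, a transcription factor of dividing cells, with 328, 127 and 256 against 621, 687 and 655 in the m group and 594, 713 and 584 at 4 weeks (difference -1.57 ± 0.24 (SE), adjusted p = 0.00292), and Cd276, an immune checkpoint molecule, at 99.2 ± 62.0 against 346 ± 30.5 (difference -2.06, adjusted p = 0.0279). A second probe set of Foxm1 was below background in all 3 groups. Dnmt1 gave 285, 627 and 522 at 4 weeks, 75.9, 82.9 and 65.7 in females, all below background, and 356, 104 and 503 in the m group, whose second array was also below background. Its difference between the 1-year groups was -1.83 (adjusted p = 0.0436) and its pooled fall from 4 weeks -1.69 (adjusted p = 0.00513), lost under 11 of 18 and 4 of 19 alternatives. Without replicate 2 of the m group the difference was -2.51.

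The young adult groups of the series, 3-month females and 5-month males with 3 arrays each, place these changes in time as a description without a test. The 15 largest rises and 15 largest falls were taken among called genes above background without overlap between ages. Of these rises, 12 had both young adult means nearer to 1 year than to 4 weeks on the log2 scale, and of these falls, 13 did. Over all called probe sets this held for 62 of 88 rises and 74 of 85 falls. The genes were chosen on the values of 4 weeks and 1 year, which favours such a result. Eln averaged 839 at 3 months and 818 at 5 months, near its 1-year mean of 806, and Col1a1 averaged 689 and 1074. Cpxm2 was at 2025 and 1497, Ankrd1 at 24968 and 20105, and Cd74 at 2207 and 1772, the last near the m group of 1 year and below the 1-year females. Nr1h4 at 5 months averaged 76.9, below background as at 4 weeks.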

How the data were processed

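The deposited values are probe-set signals of an Affymetrix mouse array, intensities on a linear scale that the authors had already scaled: after trimming 2% at each end, every array had a mean between 500.44 and 500.6. Software and settings: not given in the sources used here. Signals were raised to a floor of 14.2 (the 25th percentile) and log2 values were computed from these deposited intensities. Probe sets above the floor on at least 3 of 24 arrays were tested in limma 3.58.1 (R 4.3.3) with 1 mean per group over 8 groups, an intensity trend and Benjamini-Hochberg adjustment at 0.05, two-sided. Gene names come from the platform annotation, updated by Entrez number: 8724 probe sets had 1 symbol, 346 several and 907 none.

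The members and the gene lists were chosen with earlier results of these data known. Named genes are the 15 largest rises and falls past the threshold whose ages do not overlap and whose brighter side exceeds background (clone names and sex-linked genes skipped), up to 4 called members per functional list, up to 3 called and the 3 brightest members per marker list, the 10 genes with the largest called differences between the 1-year groups (brightest probe set of each) and the sex-linked genes. Other list members are given as examples of their list, chosen after their values were seen. Alternatives covered the arrays fitted, normalization, floor, filter, trend, each array left out and, added later, the actin ratio.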

Additional observations from a re-analysis of the deposited data

Results flagged for a closer look

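The change from 4 weeks differed between the 1-year groups in 21 probe sets, of which 19, of 18 genes, had a single gene symbol. The test was the direct one of 1-year females against the 1-year m group in limma with all 24 arrays (adjusted p under 0.05). Probe sets without a single symbol had log2 differences of 2.70 and 1.35, higher in females. The differences on the log2 scale, females minus m group, were 2.78 for Map3k6, 2.70 for Ddit4, 2.24 for Dpysl3, 2.06 for 1 of 2 probe sets of Cdkn1a, 1.94 for Pold1, 1.44 for Cebpb, 1.32 for Kdm6a, 1.18 for Sgk1, 1.18 for Errfi1, 1.07 for Kcna5, 0.95 and 0.85 for Nfkbia, 0.81 for H2-D1 and 0.78 for Pnp. They were -2.06 for Cd276, -1.83 for Dnmt1, -1.57 for Foxm1, -1.11 for Acta1 and -1.07 for Rrad, a small GTPase that restrains calcium channels in heart muscle. Rrad averaged 7940.0 ± 924 (SD, n = 3) at 4 weeks, 2841 ± 339 in females and 5988 ± 912 in the m group (n = 3 each), and its pooled fall from 4 weeks was -0.95 (adjusted p = 0.000252). The 18S control below also differed between these groups on average, with overlap between their arrays, and its part was not tested.

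The control probe sets of 18S ribosomal RNA and the B1 repeat, left out of the comparisons, were higher in 1-year females than at 4 weeks. The 3′ probe set of 18S ribosomal RNA averaged 675.4 in females (581.8 to 799.9), 448.3 in the m group (242.2 to 731.5) and 307.1 at 4 weeks (247.6 to 352.7). The probe set of the B1 repeat, a short interspersed element found in many transcripts, averaged 19421 in females (18050 to 21397), 13316 in the m group (9222 to 19836) and 11391 at 4 weeks (11028 to 11790). The m group overlapped the females in both controls. Not all controls were higher in females: another repeat, B2, averaged 26857 against 27793 at 4 weeks, and the 3′ actin control 16867 against 21016. The 3′ control of the transferrin receptor averaged 183.2 in females and 488.5 at 4 weeks.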

How the results depend on the processing

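None of the 173 calls between ages or the 21 between the 1-year groups changed sign, and 67 and 0 of them held under every alternative. No paired analysis was possible because no label links a sample of 4 weeks to a sample of 1 year. The call count of 1 year against 4 weeks (173) was 113 with the actin ratio as a covariate and ran from 102 to 172 with 1 array left out, the lowest without replicate 2 of 4 weeks, then 103 without replicate 3 and 115 without replicate 1. For 1-year females against 4 weeks (180) leaving out 1 array gave 105 (without replicate 2 of 4 weeks) to 192. For the 1-year m group against 4 weeks (112) it gave 59 (without replicate 2 of 4 weeks) to 157 (without replicate 1 of the m group), and the count was 53 with the 9 arrays alone, 68 without an intensity trend and 62 with the actin covariate. For 1-year females against the 1-year m group (21) it gave 5 (without replicate 3 of the females) to 119 (without replicate 1 of the m group), and the count was 0 with the 9 arrays alone (838 at an unadjusted p under 0.05), 37 with the floor at background and 12 with the actin covariate. Listed genes past the threshold (47 of 767) numbered 29 (without replicate 2 of 4 weeks) to 47 with 1 array left out. Median centring moved the share of higher calls between the 1-year groups from 16 of 21 to 10 of 16, and without replicate 2 of the females 2 were higher and 4 lower. Of 57 named calls against 4 weeks, 26 held under all 19 alternatives and 31 were lost in at least 1. The count of 3 arrays a group limits all of these.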

Other observations

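The called genes named here lie outside the lists and were chosen after their values were seen. The transferrin receptor gene Tfrc, which brings iron into cells, fell on both of its probe sets, from 370.5 ± 93.0 (SD, n = 3) to 95.4 ± 23.4 (n = 6; log2 change -1.97, adjusted p = 0.00128) and from 3020.0 ± 39.6 to 1548 ± 360.1 (log2 change -0.99, adjusted p = 0.00528). A control probe set of the same transcript, not among those tested, read 367.6 to 684.6 at 4 weeks, 160.6 to 208.4 in 1-year females and 175.1 to 337.7 in the m group. Alas1, the first enzyme of haem synthesis, fell from 7939 ± 191 to 4808 ± 982 (adjusted p = 0.0157). Sqstm1, a cargo receptor of autophagy, went from 3582 ± 323 to 6387 ± 532 (adjusted p = 5.83e-05), Gabarapl1, which coats autophagosomes, from 1249 ± 104 to 2222 ± 338 (adjusted p = 0.00152), and Retreg1, a receptor for breakdown of the endoplasmic reticulum, from 4807 ± 1007 to 9470.0 ± 1066 (adjusted p = 0.000265).

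Further rises were Nampt, the enzyme that recycles nicotinamide into NAD, from 679.9 ± 39.3 to 1719 ± 299 (adjusted p = 0.0001), Ptgds, a prostaglandin D synthase, on 2 of its 3 probe sets (log2 changes 1.64 and 1.27), and Penk, the precursor of enkephalins, on 1 of 2 (log2 change 1.26). Of the 173 called probe sets, 19 had no single gene symbol, among them 1 with a log2 change of 4.63 (means 101 at 4 weeks and 2385 at 1 year), and 1 with -1.93 (means 1383 and 363).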
